A study of Homo sapiens with 6 samples.

Results

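The IFIT and IFITM families are 2 groups of interferon-stimulated genes, and their transcripts were measured in 786-O cells with and without knockdown of NFE2L3. The members were taken by symbol: IFIT1, IFIT2, IFIT3, IFIT5, IFITM1, IFITM2 and IFITM3, which are 7 of the 56303 genes in the deposited count table. All 7 passed the filter on low counts, which left 19916 genes to test. Of the 7 transcripts, 5 were lower after NFE2L3 knockdown, and the remaining members, IFIT5 and IFITM2, did not pass the test. Of all tested genes, 14.0% were lower and 26.7% passed in either direction.

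786-O, a long-established line from a clear cell renal carcinoma, has no functional VHL, and NFE2L3 is a transcription factor of the cap'n'collar family. RNA-seq was done on 3 libraries of cells given a control siRNA (source siControl, genotype WT, treatment 0h in the labels) and 3 libraries of cells given an siRNA against NFE2L3 (source siNFE2L3, treatment 48h). The genotype label of the knockdown libraries reads NFE2L3, NFE2L4 and NFE2L5 knockdown in replicates 1, 2 and 3, while titles and source names give NFE2L3 throughout. Because the labelled time differs with the siRNA, the effects of the 2 cannot be told apart. All cells share the line's own genetic background, and the sources used here do not say which siRNA sequence was used. Nothing in the labels says that the libraries came from separate cultures, so the p-values reflect only how much these libraries vary, possibly for technical reasons. In these bulk samples, fewer cells that express a gene and less RNA per cell cannot be told apart.

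The libraries held between 51828446 and 57391929 counts. NFE2L3, on chromosome 7 (26152240 to 26187125, plus strand), had 6171, 6508 and 6403 counts with control siRNA and 1087, 1075 and 1068 with NFE2L3 siRNA. Its level was 17.2% of control (log2 fold change -2.54, SE 0.0482), in the direction the labels give. All 9 listed renal tumour line markers were tested, and 4 were lower and 1 higher, beside 14.0% and 12.7% of all tested genes. The summed level of the 9 markers was 2523 to 2578 CPM (counts scaled to a common library size) in control and 2286 to 2383 CPM in knockdown libraries. PAX8, the renal lineage factor, was among the lower ones (240.4 to 216.8 CPM, log2 fold change -0.15, edgeR adjusted p = 0.00626). Of 14 leukocyte markers, 8 had fewer than 10 counts in every library, with MS4A1 and TYROBP at 0. Their sum of 123.8 to 146.7 CPM in control and 117.0 to 122.5 CPM in knockdown libraries was mostly CD68, a lysosomal protein, which was lower after knockdown (131.9 to 117.6 CPM), while CSF1R was higher (1.31 to 1.97 CPM). Of 10 endothelial and fibroblast markers, 6 were tested and 0 passed by edgeR's quasi-likelihood test, also at an unadjusted p under 0.05 and by DESeq2 or limma-voom, CDH5 was at 0 in every library, and the sum was 4.70 to 5.13 CPM in control and 3.97 to 4.63 CPM in knockdown libraries. The part of these markers in the results on the IFIT and IFITM genes was not tested.

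IFIT proteins are built of tetratricopeptide repeats and bind foreign RNA, such as RNA that lacks the methylated cap of cellular messengers, and they hinder its translation. IFITM proteins are small membrane proteins that block the fusion of virus and cell membranes, IFITM1 mostly at the cell surface and IFITM2 and IFITM3 in endosomes. Interferon turns both families on through ISGF3, a complex with STAT2 and IRF9 among its subunits that binds interferon-stimulated response elements (ISRE) in promoters. NFE2L3 itself belongs to a family that binds antioxidant response elements (ARE) together with small MAF proteins.

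The IFIT genes lie side by side on the plus strand of chromosome 10. In the coordinates of the count table (GRCh38), IFIT2 spans 89283694 to 89309276, IFIT3 89327894 to 89340971, IFIT1 89392546 to 89406486 and IFIT5 89414586 to 89421001. The IFITM genes lie together on chromosome 11, with IFITM2 at 307631 to 315272 and IFITM1 at 313506 to 315272 on the plus strand and IFITM3 at 319669 to 327537 on the minus strand.

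The promoter sequences are shown because the members share a regulatory motif there. RefSeq (GRCh38.p14) promoter windows, 250 bases before to 50 bases after a start, were at hand for 5 of the 7 members, namely IFIT1, IFIT3 (2 starts), IFIT5, IFITM1 and IFITM3. Each stretch below is the 160 bases before a start, read along the gene's strand, and capitals mark the ISRE letters, GAAA followed by 2 bases of any kind and GAAA again, on either strand. The stretches are chr10:89327837-89327996 (plus strand) for IFIT3 at the upstream start, chr10:89392463-89392622 (plus) for IFIT1, chr10:89414408-89414567 (plus) for IFIT5, chr11:313880-314039 (plus) for IFITM1 and chr11:320861-321020 (minus) for IFITM3.
IFIT3: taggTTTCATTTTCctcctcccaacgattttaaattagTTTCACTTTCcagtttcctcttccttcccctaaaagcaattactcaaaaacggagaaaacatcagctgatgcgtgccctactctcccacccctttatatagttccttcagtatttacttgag
IFIT1: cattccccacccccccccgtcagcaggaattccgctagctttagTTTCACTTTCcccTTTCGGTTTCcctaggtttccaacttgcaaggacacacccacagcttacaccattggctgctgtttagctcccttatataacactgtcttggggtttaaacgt
IFIT5: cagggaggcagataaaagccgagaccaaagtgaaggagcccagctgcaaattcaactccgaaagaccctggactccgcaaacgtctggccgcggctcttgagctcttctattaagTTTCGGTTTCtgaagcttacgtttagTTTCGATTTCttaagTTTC
IFITM1: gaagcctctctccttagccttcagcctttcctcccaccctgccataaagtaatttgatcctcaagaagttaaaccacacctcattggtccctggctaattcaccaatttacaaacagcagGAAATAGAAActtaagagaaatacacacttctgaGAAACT
IFITM3: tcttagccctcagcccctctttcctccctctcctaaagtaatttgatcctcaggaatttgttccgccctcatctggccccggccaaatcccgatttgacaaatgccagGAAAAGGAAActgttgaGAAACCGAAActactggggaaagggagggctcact

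Each of the 6 windows held at least 2 matches to the ISRE letters, against 3.57% of 35116 promoter windows with a match. By gene, a match was found in 5 of 5 members and in 4.38% of 27305 genes. In IFIT1 the matches are TTTCACTTTC, ending 107 bases before the start, and TTTCGGTTTC, ending 94 bases before it. IFIT5 has 3 matches, and the last of them and the last of IFITM1 run across the start, so the printed stretch shows only their first bases. The downstream start of IFIT3 has 2 further matches. The IFIT matches read TTTC on the gene's strand and the IFITM matches read GAAA, so the letters run in opposite directions in the families. A gamma-activated site (TTCNNNGAA, in 7.66% of windows) was found in IFITM1, where it overlaps an ISRE match, and the ARE core (TGACNNNGC, in 13.3% of windows) after the upstream start of IFIT3. A match is a description of letters and not of binding.

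**Figure D1:**
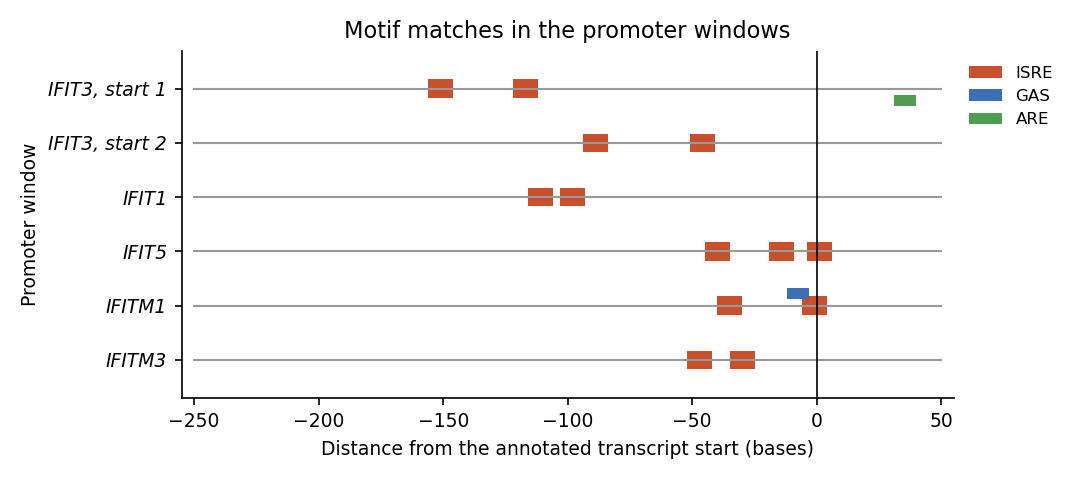
Matches to the ISRE, gamma-activated site and ARE letters in the 6 RefSeq promoter windows of 5 members, with the distance from the start in bases on the x axis. Every window holds at least 2 ISRE matches, and all of these lie within 160 bases before the start or across it.

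IFIT2, which associates with IFIT1 and IFIT3 and is known for promoting cell death, fell the most of the 4 IFIT members and had the smallest adjusted p of all 7. Its counts were 4610, 5594 and 5749 in control libraries and 3532, 3800 and 3222 in knockdown libraries. Every knockdown library was below every control library. The level was 95.7 ± 8.36 CPM (SD, n = 3) in control and 64.5 ± 2.70 CPM in knockdown cells, or 67.4% of control (log2 fold change -0.57, SE 0.0529, edgeR adjusted p = 1.11e-08).

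IFIT3, the partner that stabilises IFIT1, was the most abundant member per length. It had 9608, 11182 and 11463 counts in control and 8083, 8747 and 7856 in knockdown libraries. In CPM, which allows for library size, the groups did not overlap (181.0 to 206.3 against 144.6 to 155.5). The mean fell from 193.5 ± 12.7 to 151.0 ± 5.72 CPM (SD, n = 3), with a log2 fold change of -0.36 (SE 0.0459, edgeR adjusted p = 1.59e-06).

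IFIT1, which recognises RNA with an incompletely methylated cap, was at 22.0, 22.7 and 26.4 CPM in control and 17.1, 17.0 and 20.3 CPM in knockdown libraries. Control replicate 3 and knockdown replicate 3 were the highest of their groups, and the groups did not overlap. IFIT1 was at 76.5% of control (23.7 ± 2.35 to 18.1 ± 1.90 CPM, SD, n = 3, log2 fold change -0.39, SE 0.0740, edgeR adjusted p = 2.81e-04).

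IFIT5, which binds RNA with an uncapped phosphate end, was at 26.5, 29.5 and 32.3 CPM in control and 24.6, 25.9 and 28.4 CPM in knockdown libraries. Here the groups overlapped, with knockdown replicate 3 above control replicate 1. The log2 fold change was -0.17 (95% interval -0.302 to -0.0281, edgeR adjusted p = 0.0689), which missed the threshold of 0.05. It passed in 4 of 15 alternative settings, among them without control replicate 1 (log2 fold change -0.24, edgeR adjusted p = 0.00438) and without knockdown replicate 3 (-0.22, edgeR adjusted p = 0.0351). The fall was smaller, and did not pass, without control replicate 3 (-0.0936, edgeR adjusted p = 0.364) and without knockdown replicate 1 (-0.12, edgeR adjusted p = 0.292).

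IFITM1, which acts mostly at the cell surface, had the largest fold difference of the 7, on few counts. The counts were 134, 113 and 100 in control and 58, 47 and 68 in knockdown libraries. No knockdown library reached the lowest control library. The level fell from 2.09 ± 0.382 to 1.07 ± 0.245 CPM (SD, n = 3), or to 50.9% of control (log2 fold change -0.98, SE 0.199, 95% interval -1.39 to -0.566, edgeR adjusted p = 5.58e-04).

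IFITM2, an endosomal member, was the least abundant, with 71, 55 and 74 counts in control and 32, 62 and 36 in knockdown libraries. Knockdown replicate 2 lay above control replicate 2, so the groups overlapped. The log2 fold change of -0.60 (95% interval -1.12 to -0.0846, edgeR adjusted p = 0.0797) did not pass, and without knockdown replicate 2 it was -0.92 (edgeR adjusted p = 0.0188). Without control replicate 2 it was -0.75 (edgeR adjusted p = 0.0414), and without knockdown replicate 1 it was -0.41 (edgeR adjusted p = 0.310).

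IFITM3, the endosomal member that restricts influenza virus entry, was at 43.9, 33.9 and 38.4 CPM in control and 32.0, 33.3 and 32.1 CPM in knockdown libraries. Control replicate 2 stood only just above the highest knockdown library, and control replicate 1 was the highest of the 6. IFITM3 fell to 83.9% of control (38.7 ± 4.998 to 32.5 ± 0.703 CPM, SD, n = 3, log2 fold change -0.25, SE 0.0658, edgeR adjusted p = 0.00513). Without control replicate 1 the log2 fold change was -0.15, with an edgeR adjusted p of 0.0445.

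**Figure D2:**
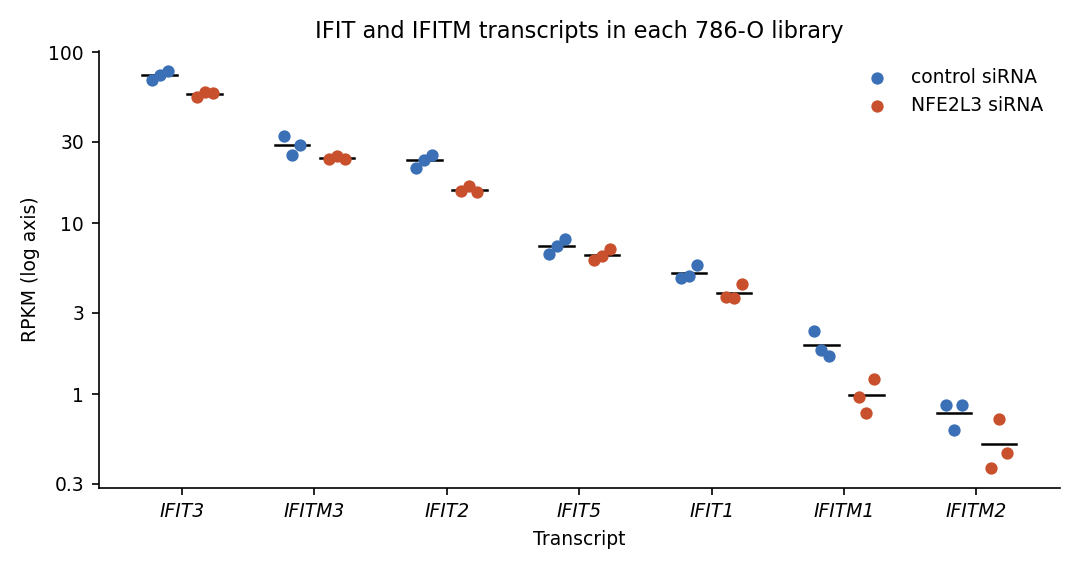
Level per exon length and library size (RPKM, log axis) of each member in each library, with the 3 control and 3 NFE2L3 siRNA libraries as points beside each other and a black line at each group's mean. IFIT3 is highest and IFITM2 lowest in both groups, and the groups overlap for IFIT5 and IFITM2.

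Over the 7 members, 5 were lower and 0 higher at an edgeR adjusted p under 0.05, beside 14.0% of all tested genes lower and 12.7% higher. DESeq2 and limma-voom gave 0 higher members too. The same 5 did not overlap between the groups, beside 20.4% of all tested genes that did so with the knockdown lower. The median log2 fold change of the 7 was -0.39, while that of all tested genes was about 0 and their 5% quantile was -0.48. With the cutoffs of the study's methods, an unadjusted p under 0.05 and a change of 2-fold or more, 0 members passed in either direction, beside 0.377% of all genes lower and 0.723% higher. At an unadjusted p under 0.05 alone, all 7 were lower and 0 higher. The share of all tested genes at that looser cutoff was not computed. It cannot be smaller than the 14.0% lower and 12.7% higher at the adjusted p, so this count is not read as a result. The log2 fold change of IFITM1 lay at percentile 0.427 of all tested genes, IFITM2 at 2.91, IFIT2 at 3.43 and IFIT1 at 7.38. IFIT3 was at percentile 8.37, IFITM3 at 14.2 and IFIT5 at 23.

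**Figure D3:**
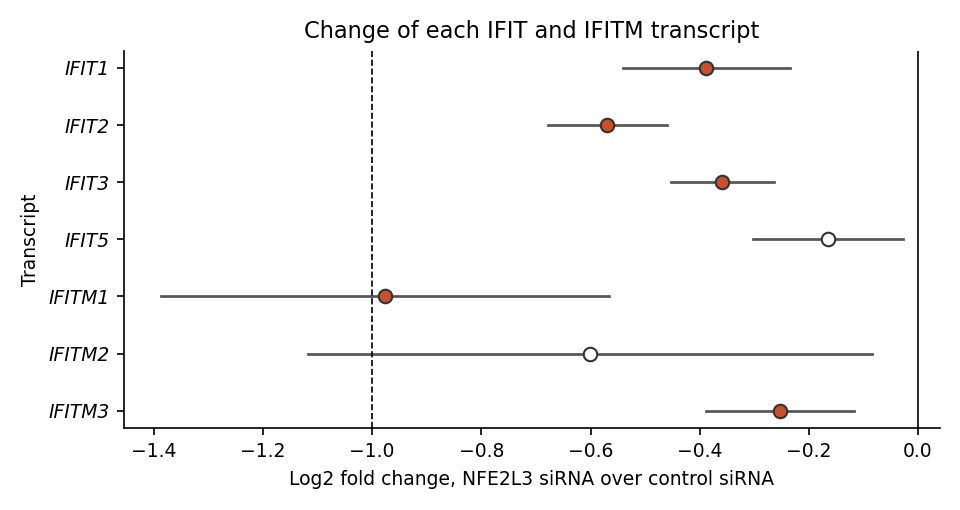
Log2 fold change of each member, NFE2L3 siRNA over control siRNA (x axis), with its 95% interval from the fit across all genes, filled where the edgeR adjusted p was under 0.05 and open otherwise, and a dashed line at a 2-fold fall. All intervals lie below 0, from IFITM1 at -0.98 to IFIT5 at -0.17, and those of IFITM1 and IFITM2, which had the fewest counts, are the widest.

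Levels of different genes were compared per exon length. In both groups the order by RPKM was IFIT3, IFITM3, IFIT2, IFIT5, IFIT1, IFITM1 and IFITM2. The level of IFIT3 was 73.3 ± 4.80 RPKM in control and 57.2 ± 2.17 RPKM in knockdown cells (SD, n = 3). The ranges of IFITM3 (28.7 ± 3.71 RPKM) and IFIT2 (23.3 ± 2.04 RPKM) overlapped across the control libraries. Within each control library IFITM3 was above IFIT2 (32.5 against 21.2, 25.1 against 23.6 and 28.5 against 25.2 RPKM). After knockdown they were at 24.1 ± 0.521 and 15.7 ± 0.657 RPKM and did not overlap. IFIT5 and IFIT1 had 7.33 ± 0.730 and 5.14 ± 0.510 RPKM in control cells, and IFITM1 and IFITM2 had 1.94 ± 0.354 and 0.782 ± 0.144 RPKM. Neighbours in the order other than IFITM3 and IFIT2 did not overlap in either group.

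Summed over the 4 IFIT members, the level was 101.1, 109.1 and 117.2 RPKM in control and 80.0, 85.5 and 84.7 RPKM in knockdown libraries, or 76.4% of control. The IFITM sum was 35.7, 27.6 and 31.1 RPKM in control and 25.1, 26.2 and 25.5 RPKM in knockdown libraries, or 81.4% of control. Neither sum overlapped between the groups. IFIT3 made up 67.2 ± 0.560% of the IFIT sum in control and 68.6 ± 0.275% in knockdown cells (SD, n = 3), while IFIT2 made up 21.4 ± 0.367% and 18.9 ± 0.696%. IFITM3 made up 91.4 ± 0.432% and 94.1 ± 0.655% of the IFITM sum, so this sum mainly follows IFITM3.

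Whether members of a family differed in their change was asked from ratios within each library, which do not depend on scaling. Of 9 pairs, 5 did not overlap between the groups. The share over other pairs of genes was not computed, and 39.5% of all tested single genes did not overlap in either direction. The pairs reuse the same members and are not independent. An exact two-sided permutation test of 3 against 3 libraries cannot go below p = 0.1, so no pair could pass. The log2 ratio of IFIT2 to IFIT5 was 1.68, 1.68 and 1.65 in control and 1.33, 1.36 and 1.11 in knockdown libraries (difference -0.40, exact permutation p = 0.1, adjusted over the 9 pairs 0.18). IFIT2 was thus lower relative to IFIT5 in every knockdown library. The same held for IFIT2 to IFIT3 (-0.21), IFIT3 to IFIT5 (-0.20) and IFIT1 to IFIT5 (-0.22), each with an exact permutation p of 0.1. IFIT1 to IFIT3 differed by -0.03 (exact permutation p = 0.9). In the IFITM family, IFITM1 to IFITM3 differed by -0.74 without overlap (exact permutation p = 0.1), and IFITM1 to IFITM2 by -0.34 with overlap (exact permutation p = 0.6).

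**Figure D4:**
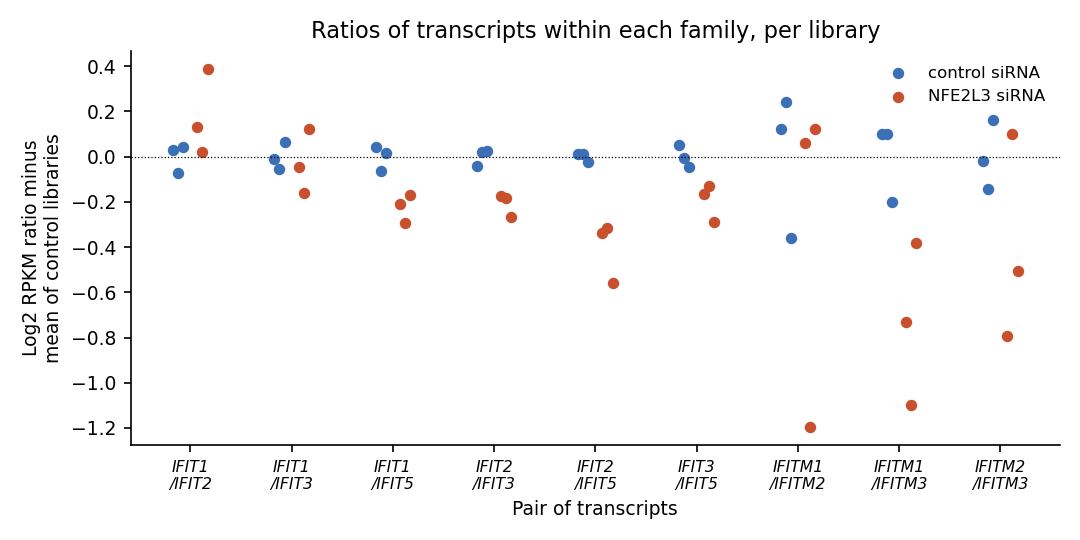
Log2 ratio of RPKM within each library for the 9 pairs of members of a family, with each ratio set against its mean over the control libraries. The 3 knockdown libraries lie below all control libraries for IFIT2 to IFIT5 and IFITM1 to IFITM3, and the groups overlap for IFIT1 to IFIT3 and IFITM1 to IFITM2.

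Several members share sequence or position with other genes, and the sources used here give neither the strand setting of the counting nor its handling of reads with several matches. IFITM1 and IFITM2 share 351 exon bases on the same strand, and the longest exact stretch in common is 145 bases for IFITM1 and IFITM2, 181 for IFITM1 and IFITM3 and 139 for IFITM2 and IFITM3. In GENCODE transcripts, 26.7% of the 75-base windows of IFITM1, 14.3% of IFITM2 and 24.2% of IFITM3 occur in any other gene, and 14.6%, 12.6% and 11.2% in another member. Of 150-base windows, 1.06%, 0% and 1.13% occur in another member. The split of such reads between these members is uncertain. Between IFIT members the longest common stretch was 15 to 26 bases, and 0% of the 75-base windows of IFIT1 and IFIT5, 0.379% of IFIT3 and 7.48% of IFIT2 occur in another gene, 0% of them in another member. IFIT1, IFIT2 and IFIT3 lie within LIPA, the lysosomal acid lipase gene on the opposite strand. LIPA was at 19.7 CPM with a log2 fold change of 0.12 (edgeR adjusted p = 0.176). IFIT2 shares 65 exon bases with LIPA and 356 with RP11-149I23.3 on its own strand, which was at 1.36 CPM. IFITM3 shares 287 exon bases with the antisense RP11-326C3.12 (0.348 CPM, log2 fold change 1.10, edgeR adjusted p = 0.0968). It passed without control replicate 2 (edgeR adjusted p = 0.00441), with no filter (0.0320) and by limma-voom (0.0277). The antisense RP11-326C3.11, which overlaps IFITM3 without a shared exon base, was at 1.54 CPM and higher after knockdown (log2 fold change 0.86, SE 0.188, edgeR adjusted p = 0.00107), and it is named here because its value was seen.

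Within 500000 bases of the IFIT genes, members left out, 13 of 32 genes were tested, 3 were lower and 1 was higher (median log2 fold change -0.21). Over all tested genes 14.0% were lower and 12.7% higher, and a difference of these neighbours from those shares was not tested. FAS, the death receptor, was lower (-0.60, edgeR adjusted p = 3.73e-08), as were STAMBPL1 (-0.27) and PANK1 (-0.40), and KIF20B, a mitotic kinesin, was higher (0.84, edgeR adjusted p = 8.10e-11). The call of PANK1 was lost without knockdown replicate 2 (edgeR adjusted p = 0.0565). Around the IFITM genes, 42 of 67 genes were tested, 5 were lower and 7 higher (median 0.06). TALDO1 (-0.25), PNPLA2 (-0.32) and SLC25A22 (-0.38) were lower there and PHRF1 (0.21) was higher. Around the IFITM genes these counts lie near the shares over all tested genes, 14.0% lower and 12.7% higher.

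The upstream side of the interferon pathway was read from gene lists. Of 22 interferon ligand genes, 14 had 0 counts in all libraries and 21 had fewer than 10 counts in every library. A count of 0 allows up to 3 counts, or 0.0519 to 0.0584 CPM in these libraries. IFNB1 had 2, 2 and 0 counts in control and 0, 0 and 0 in knockdown libraries, and only IFNE could be tested (17 to 32 counts, log2 fold change 0.43, edgeR adjusted p = 0.401). Apart from IFNE, transcripts of interferon ligands were thus at or near the limit of detection in both groups.

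Of 12 genes for interferon receptors, their JAK kinases and ISGF3, 8 were lower and 0 higher (median log2 fold change -0.22). An unadjusted p under 0.05, DESeq2 and limma-voom gave the same counts. Over all tested genes 14.0% were lower and 12.7% higher at the adjusted p. JAK1, a kinase of the receptors, fell from 315.9 ± 3.48 to 248.9 ± 4.47 CPM (SD, n = 3, log2 fold change -0.34, edgeR adjusted p = 1.63e-07), and IRF9, the DNA-binding subunit of ISGF3, fell by 0.35 on the log2 scale (edgeR adjusted p = 8.36e-06). IL10RB, a subunit of the receptor for type III interferons, was lower too (-0.39, edgeR adjusted p = 2.83e-05). STAT2, the partner of IRF9 in ISGF3, had 31.9 CPM in control and 32.3 CPM in knockdown cells (log2 fold change 0.02, 95% interval -0.0899 to 0.122, edgeR adjusted p = 0.862), and did not pass.

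Of 17 tested nucleic acid sensors and IRF factors, 7 were lower and 2 higher, beside 14.0% and 12.7% of all tested genes. DDX58, the RNA sensor RIG-I, was lower (-0.53, edgeR adjusted p = 5.65e-08), as were IFIH1, the sensor MDA5 (-0.39), the kinase IKBKE (-0.54) and IRF1 (-0.32). The 2 higher ones were IRF3 (0.18) and TRAF3 (0.13). IRF3 lost its call without control replicate 3 (edgeR adjusted p = 0.0968) or knockdown replicate 1 (0.0559), and TRAF3 without control replicate 2 (0.0754), knockdown replicate 1 (0.0873) or knockdown replicate 3 (0.114) and with no filter (0.0615). Of 10 tested feedback inhibitors, 6 were lower and 0 higher, also at an unadjusted p under 0.05 and by DESeq2 or limma-voom, among them ISG15, the ubiquitin-like modifier (-0.58, edgeR adjusted p = 1.60e-08), SOCS3 (-0.70), PTPN11 (-0.29) and USP18 (-0.41). Where an inhibitor passed, it was lower, as the IFIT genes that passed were.

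The members were set beside other antiviral families. All 4 OAS genes, which encode sensors of double-stranded RNA and their relative OASL, were lower, with OASL at -1.03, OAS1 at -0.83, OAS2 at -0.57 and OAS3 at -0.33. All 5 tested guanylate-binding proteins were lower (median -0.60), from GBP4 (-0.88) and GBP1 (-0.74) through GBP2 (-0.60) and GBP5 (-0.55) to GBP3 (-0.15). Of 39 other tested antiviral interferon-stimulated genes, 21 were lower, 1 was higher and 17 did not pass (median -0.21). XAF1 (-0.68), PARP14 (-0.33), TRIM14 (-0.39) and IFI44 (-0.38) were lower, and SAMD9, a restriction factor of poxviruses, was higher (0.21). Over all tested genes 14.0% were lower and 12.7% higher. The difference between these lists and the members was not tested. Among genes with a window, the ISRE letters were found in 24 of 36 of these other antiviral genes. They were also found in 3 of 5 guanylate-binding proteins and in 1 of 2 genes of the OAS list.

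Relatives of the members were scarce. Of 10 listed, 8 were in the table and 7 had fewer than 10 counts in every library. IFITM10 had 4.77 ± 0.5998 CPM in control and 5.60 ± 0.389 CPM in knockdown cells (SD, n = 3, log2 fold change 0.23, edgeR adjusted p = 0.124), with overlap.

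Genes whose proteins work on IFIT or IFITM proteins or on their targets were read from 2 further lists. Of 10 cap methylation and translation partners of IFIT proteins, 2 were lower and 1 higher (median -0.04), near the 14.0% lower and 12.7% higher over all tested genes. CMTR2, a ribose methyltransferase of the cap region, was lower (-0.57, edgeR adjusted p = 4.39e-08). FAM103A1, the activator of the cap methyltransferase RNMT, was lower too (-0.40), while RNMT itself was higher (0.19, edgeR adjusted p = 0.00119). CMTR1, of the same list, had a log2 fold change of -0.06 and did not pass. STAU2 had a log2 fold change of -0.11 (edgeR adjusted p = 0.125). Of 13 partners of IFITM proteins, 3 were lower and 2 higher (median -0.08), and a difference from the shares over all tested genes was not tested. SETD7, a lysine methyltransferase that modifies IFITM3, rose from 78.1 ± 2.68 to 123.4 ± 2.97 CPM (SD, n = 3, log2 fold change 0.66, edgeR adjusted p = 2.10e-11), and FYN, a kinase of IFITM3, was higher (0.24). ZDHHC20, a palmitoyltransferase of IFITM3, was lower (-0.56, edgeR adjusted p = 6.78e-07). ZMPSTE24, a protease that works with IFITM proteins, was lower (-0.16, edgeR adjusted p = 0.0188) but not without control replicate 2 or 3 or knockdown replicate 2 or 3.

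**Figure D5:**
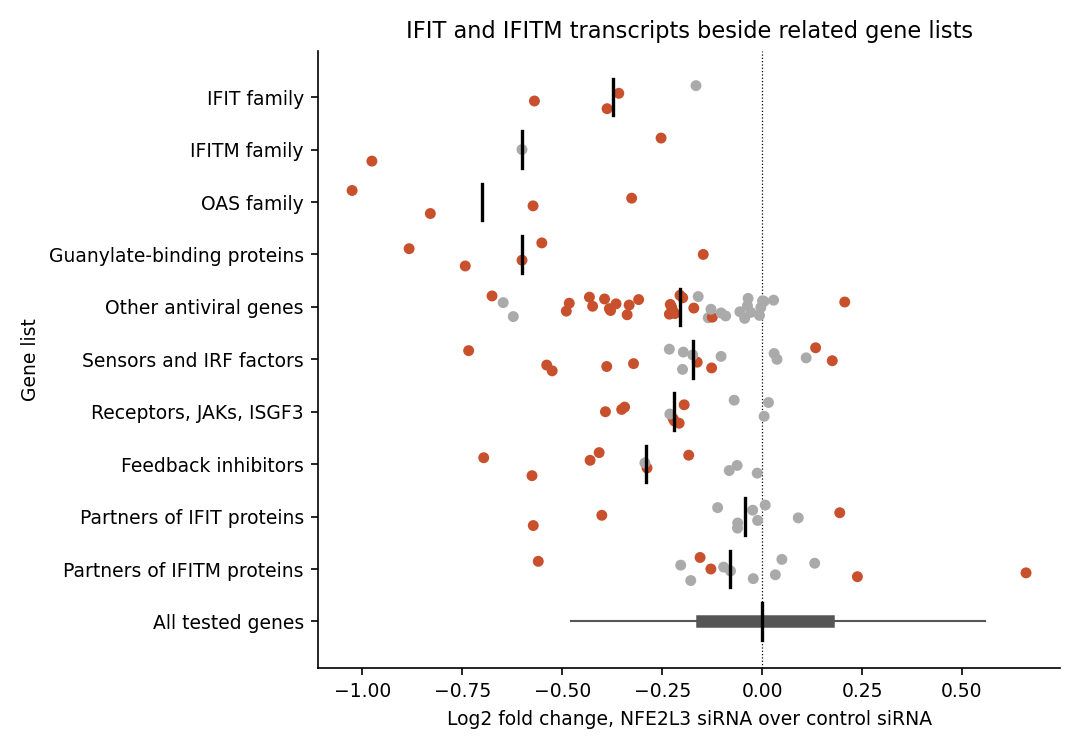
Log2 fold change, NFE2L3 siRNA over control siRNA (x axis), of tested genes of each list as points, orange at an edgeR adjusted p under 0.05 and grey otherwise, with a black line at the median of the points shown. For all tested genes the thick bar spans the 25% to 75% quantiles and the thin line the 5% to 95% quantiles. The IFIT, IFITM, OAS, guanylate-binding protein and feedback inhibitor lists lie wholly below 0. The partner lists of IFIT and IFITM proteins lie on both sides of 0.

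The genes most like the families over the 6 libraries were found by the root mean square difference of log2 CPM after subtracting each gene's own mean, among 11626 genes of at least 5 CPM. Nearest to the mean profile of the 4 IFIT members were DUSP10 (0.0284), IFI44 (0.0347), EMP1 (0.0354), INTS7 (0.0376) and PLSCR1 (0.0377), where the median gene was at 0.203. IFI44 and PLSCR1, a phospholipid scramblase, are interferon-stimulated genes of the antiviral list. For the IFITM family only IFITM3 reached 5 CPM, and its nearest genes were APOBEC3D (0.0259), HES1 (0.0390), SMAD1 (0.0433), CYSTM1 (0.0464) and KLHL4 (0.0517), with a median of 0.179. Of these, HES1, SMAD1 and CYSTM1 were lower by edgeR's test (adjusted p = 0.00258, 0.0408 and 2.38e-04), while APOBEC3D and KLHL4 did not pass (adjusted p = 0.0598 and 0.0941). Both passed without control replicate 2 (edgeR adjusted p = 0.0170 and 0.0422), and APOBEC3D also without scaling factors (0.0490). The likeness was taken over the same 6 libraries as the test, in which the families were lower. The direction of these genes thus follows from how they were chosen, and their calls are no separate result. The likeness is a description.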

How the data were processed

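RNA-seq of 786-O cells was analysed in 3 control siRNA and 3 NFE2L3 siRNA libraries, grouped by the sample labels. Per the labels and the study's methods, the authors prepared stranded mRNA libraries with molecular identifiers, trimmed reads with Trimmomatic 0.36, built consensus reads, mapped them with STAR 2.5.3a to the human genome of Ensembl release 87 and counted exonic reads with featureCounts of Subread 1.5.1. The sequencer is a DNBSEQ-T7 in the labels and an Illumina instrument in the methods. The deposited table lists raw counts for every gene in each library, together with exon lengths in bases. Even numbers made up 67.6% to 69.9% of counts from 1 to 29, so counts halved and rounded up were tried as an alternative. The authors used edgeR 3.12.1.

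From the counts, CPM and RPKM (TMM scaled) were computed, and genes kept by filterByExpr (minimum count 10) were tested in R 4.3.3 by edgeR 4.0.16 (quasi-likelihood test), with Benjamini-Hochberg adjustment over 19916 genes. The threshold was an adjusted p under 0.05. DESeq2 1.42.0 and limma 3.58.1 served as alternatives, and the code was tested on simulated data. Ratios within libraries were tested by exact permutation, two-sided. No pair of replicates agreed within sampling noise (chi-square per degree of freedom 4.00 to 7.55). The members and gene lists were chosen with earlier results of these data known. Named genes were NFE2L3, the members, up to 4 genes per list and per neighbourhood by smallest adjusted p (all where 5 or fewer were tested), genes that share exon bases with a member, and the 5 nearest by likeness. IRF3, TRAF3, STAT2, SAMD9, CSF1R, IFNB1, RP11-326C3.11 and genes beyond that number in a list were named after their values were seen. Values of 3 listed genes are not reported here. Promoter windows are from RefSeq, and windows shared between transcripts were counted in GENCODE transcripts by sequence only. The 95% intervals come from the edgeR fit and include the spread between libraries, while the floor for a count of 0 covers counting error only.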

Additional observations from a re-analysis of the deposited data

How the results depend on the processing

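Counts of calls were recomputed under 16 alternatives, fold changes under 15, family sums under 10 and ratios within families under 7, and list medians, likeness and neighbourhood counts were not recomputed. The alternatives were other scaling, DESeq2, limma-voom, other filters, halved counts, the replicate number as a block, the study's cutoffs, and without each library in turn. IFIT1, IFIT2, IFIT3, IFITM1 and IFITM3 kept their direction and an adjusted p under 0.05 in all 15 alternatives that give a fold change. IFIT5 also passed without a filter (log2 fold change -0.17, edgeR adjusted p = 0.0332), and IFITM2 did so too (-0.60, edgeR adjusted p = 0.0470), which brought the members lower from 5 to 7. At an unadjusted p under 0.05 with at least 2-fold, 75 genes were lower, 144 higher and 0 members lower. The same replicate number did not mark paired libraries (correlations of deviations -0.0577, -0.157 and -0.0688, and no library correlated best with its own number). With the replicate block, IFIT5 had a log2 fold change of -0.16 (edgeR adjusted p = 0.0405) and 6 members were lower.

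Leaving out 1 library at a time, the median of the members ran from -0.48 to -0.31, the IFIT sum from 73.7% to 79.3% of control and the IFITM sum from 76.5% (without control replicate 2) to 87.3% (without control replicate 1). The log2 ratio difference of IFIT1 to IFIT3 ran from -0.105 to 0.0375, turning sign without control replicate 3 (0.00292) or knockdown replicate 2, and that of IFITM1 to IFITM2 from -0.567 to 0.0912, turning sign without knockdown replicate 2. The cause was not tested.

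For the 150 other genes followed, 2226 values were computed. Of these 51 changed sign, all of genes with an adjusted p of 0.05 or more, 56 lost a call and 20 gained one. The log2 fold changes that turned sign under the setting 'upper quartile scaling' were EIF3E 0.00839, NLRC5 0.00828, DDX60L 0.0138 and LGALS3BP 0.0165. The log2 fold changes that turned sign under the setting 'no scaling factors' were TUT1 -0.00380, IFNGR2 -0.00707, SAMD9L -0.00704 and SAMHD1 -0.0108. The log2 fold changes that turned sign under the setting 'limma-voom' were NKG7 -0.0378 and PTPRC -0.28. The log2 fold changes that turned sign under the setting 'no filter' were PTPRC -0.00454 and SAMHD1 -0.00288. The log2 fold changes that turned sign under the setting 'replicate block' were PTPRC -0.11. Without 1 library at a time, those that turned sign ran for AP2M1 from -0.0505 to 0.0178, APOBEC3F from -0.15 to 0.0640, DDX60L from -0.0553 to 0.0226, EIF3E from -0.0492 to 0.0300, IFNGR2 from -0.0514 to 0.0488, IRF5 from -0.0732 to 0.10, IRF7 from -0.0798 to 0.43, KDR from -0.51 to 0.46, LGALS3BP from -0.0231 to 0.0254, NLRC5 from -0.0469 to 0.0327, PDGFRB from -0.65 to 0.0536, PECAM1 from -0.91 to 0.21, PTPRC from -1.17 to 0.45, RP11-326C3.7 from -0.42 to 0.13, SAMD9L from -0.0143 to 0.0342, SAMHD1 from -0.0155 to 0.0133, STAT2 from -0.00604 to 0.0429, TRIM21 from -0.0676 to 0.00182 and TUT1 from -0.0380 to 0.0628. SMAD1 lost its call under upper quartile scaling, DESeq2, limma-voom and the block and without any 1 library other than control replicate 2, EMP1 without control replicate 3, PAX8 without knockdown replicate 3, CSF1R without control replicates 2 or 3 or knockdown replicates 1 or 2, and CD68 without control replicate 1 or knockdown replicate 2. Depth limits IFITM1, IFITM2 and the interferon ligands, which had the fewest counts.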
